A study of Naumovozyma castellii with 10 samples.

Results

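At the start of chromosome 9 of the budding yeast Naumovozyma castellii, annotated long non-coding RNAs and mRNAs overlap on opposite strands. Both strands gave small RNAs. The cluster described here has 6 members of the 8407 annotated features kept, picked by identifier: the non-coding XUT0919, XUT0920, XUT0921 and CUT1198 on the plus strand, and the mRNAs NCAS_0I00100 and NCAS_0I00110 on the minus strand. The members were proposed with their densities in all 5 groups known, so their levels and fold changes below are a description and carry no p-values. In the comparison of WT CHX with upf1, XUT0919 and XUT0920 had ranks 1 and 2 from the lowest of 7879 tested features and the other members ranks 4 to 7.

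N. castellii has kept RNA interference, in which Dicer (DCR1), an RNase III enzyme, cuts double-stranded RNA into small interfering RNAs that Argonaute binds. XUTs are lncRNAs that accumulate when the cytoplasmic 5′ to 3′ exonuclease Xrn1 is missing, and CUTs are cryptic unstable transcripts. Nonsense-mediated decay (NMD) is a translation-coupled decay pathway that needs the helicase Upf1, and cycloheximide (CHX) blocks translation elongation.

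Small RNA below 80 nt was sequenced from 10 libraries in 5 groups of 2 biological replicates. The upf1 group carried upf1::kanMX6, the WT CHX group was the wild-type strain given CHX at 100 µg/mL for 15 min, the dcr1 upf1 group carried dcr1 and upf1::kanMX6, the dcr1 CHX group was a dcr1 strain given the same CHX treatment, and the WT group was the untreated wild type. All strains were MATalpha ura3-1 ho, each genotype was represented by 1 strain, and a dcr1 strain without CHX was not analysed here. Values are normalised densities, that is reads per nucleotide of a feature, scaled by the authors to a Schizosaccharomyces pombe spike-in. A lower density cannot tell apart fewer cells making a small RNA from fewer molecules per cell.

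Reads summed over the annotated features came to 3169072 to 6904640 in each Dicer-proficient library and 129559 to 148330 in each Dicer-deficient one. A read in overlapping features of the same strand counts in each of them. The gene of Upf1, annotated as NAM7, had 0 reads in all 4 libraries that carry upf1::kanMX6. It had 21 and 45 reads with CHX in the wild type, 4 and 8 in dcr1 CHX, and 13 and 3 in untreated WT. The dcr1 deletion was not checked at its locus, because DCR1 could not be matched by symbol.

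The members cover 1925 bases, from 4805 to 6729 of chromosome 9, and overlap one another closely. CUT1198 (4819 to 6728) is 1910 bases long. It contains XUT0919 (4830 to 5079), XUT0920 (5104 to 5572) and all but 1 base of XUT0921 (5605 to 6729), so the plus-strand members share their reads and are not independent. The intervals of the 3 XUTs held 98.4% to 99.5% of the CUT1198 reads in the Dicer-proficient libraries. The minus-strand mRNAs NCAS_0I00100 (4805 to 5296) and NCAS_0I00110 (5312 to 6670) do not overlap each other and lie 15 bases apart. CUT1198 spans 100% of NCAS_0I00110 and 97.2% of NCAS_0I00100. Neither mRNA has a gene symbol in the RefSeq table, and no function is given to them here. No other annotated feature overlaps any member. How reads with several possible origins were handled is not given in the sources used here.

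Small RNAs on both strands of the cluster were 65.6 to 117 times denser in upf1 than in WT by the spike-in. With each library scaled to its median mRNA in place of the spike-in, the log2 fold changes were 4.86 to 5.68, against 6.02 to 6.84. XUT0919 had densities of 8.61 and 8.32 in upf1, against 0.0737 and 0.0709 in WT. XUT0920 had 8.07 and 7.35 in upf1, against 0.0889 and 0.0731 in WT. XUT0921 had 4.71 and 4.72 in upf1, against 0.0461 and 0.0503 in WT. For these 3 transcripts the replicates of each group lay close together. CUT1198, the transcript that spans them, had 15033 and 16108 reads in upf1, against 233 and 191 in WT, or a mean density of 5.84 ± 0.157 in upf1 and 0.0581 ± 0.00141 in WT (SD, n = 2 each).

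The minus strand moved with it. NCAS_0I00100 had densities of 4.60 and 4.22 in upf1, against 0.0601 and 0.0639 in WT. NCAS_0I00110 had 4.86 and 4.43 in upf1, against 0.0810 and 0.0606 in WT. The ratios of mean density, upf1 over WT, were 71.2 for NCAS_0I00100 and 65.6 for NCAS_0I00110, against 117 for XUT0919, 95.2 for XUT0920, 97.8 for XUT0921 and 100.5 for CUT1198.

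**Figure D1:**
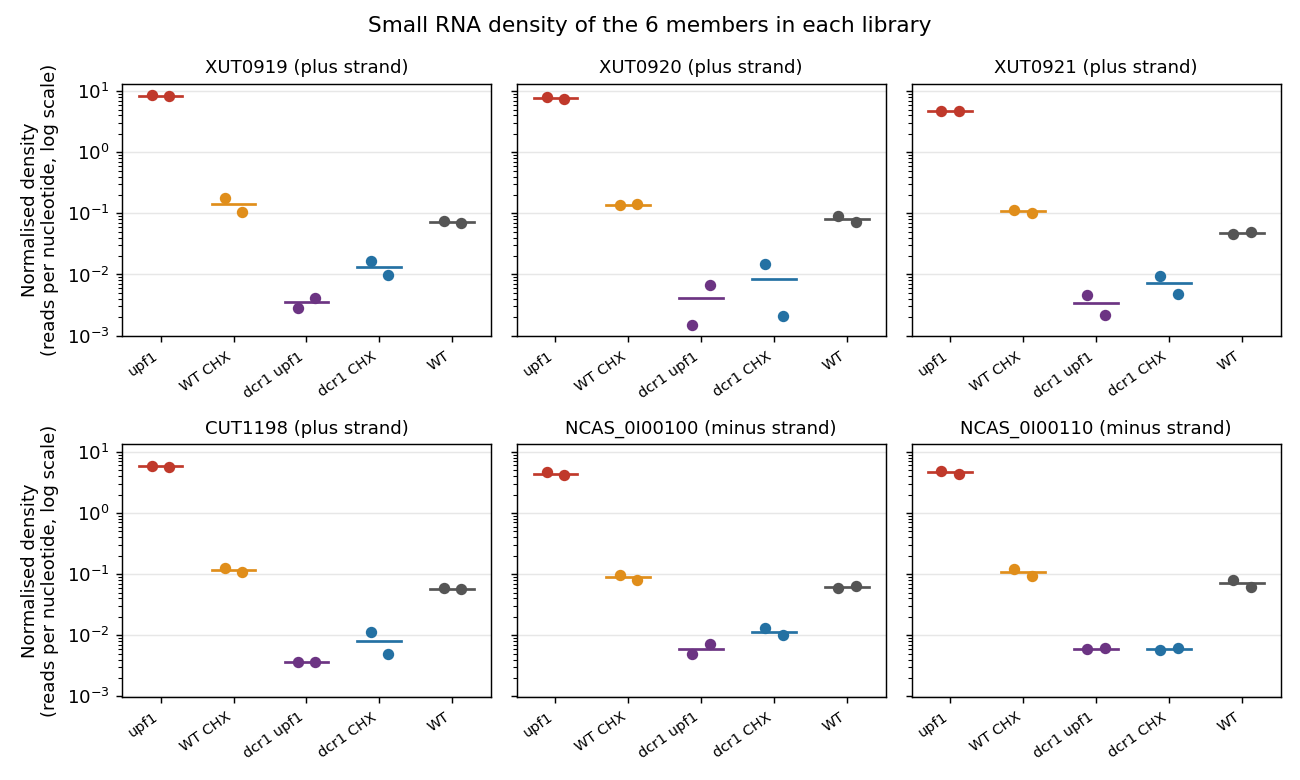
Normalised small RNA density (reads per nucleotide, log scale) of each member by group. Points are libraries and bars are means of 2. The upf1 libraries lie between 4.22 and 8.61 in every panel, the WT CHX libraries between 0.0807 and 0.176, the WT libraries between 0.0461 and 0.0889, and the Dicer-deficient libraries at or below 0.0169.

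In the limma fit the log2 fold changes of upf1 against WT were 6.84 (SE 0.23) for XUT0919, 6.62 (SE 0.13) for CUT1198, 6.57 (SE 0.13) for XUT0921 and 6.55 (SE 0.14) for XUT0920. The mRNAs followed at 6.12 (SE 0.14) for NCAS_0I00100 and 6.02 (SE 0.19) for NCAS_0I00110. All 6 members were called higher, as were 57.7% of the 7879 tested features. The median log2 fold change was 6.56 over the members, 2.15 over all tested XUTs, 1.69 over all tested CUTs, 1.06 over all tested mRNAs and 1.198 over all tested features. Among 950 tested XUTs, XUT0919 ranked 3, XUT0921 ranked 6 and XUT0920 ranked 8 from the highest, CUT1198 ranked 5 of 1145 CUTs, and NCAS_0I00100 and NCAS_0I00110 ranked 15 and 18 of 5366 mRNAs.

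With this rise the cluster moved further up the density ranking. Among all 8407 features the members were at ranks 735 to 1181 in WT and 48 to 96 in upf1. By mean density XUT0919 was at rank 21 of 1021 XUTs in upf1, against rank 172 in WT, and CUT1198 at rank 14 of 1280 CUTs in upf1, against rank 193 in WT. NCAS_0I00110 was at rank 29 of 5600 mRNAs in upf1, against rank 346 in WT. Both strands together took 0.429% and 0.406% of the reads over annotated features in the upf1 libraries, against 0.0126% and 0.0115% in the WT libraries. These shares do not depend on the spike-in. Their denominator counts a read again in each overlapping feature of its strand, and their numerator does not.

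Cycloheximide, which also impairs NMD by stopping translation, gave these members a far smaller change. XUT0919 had 0.176 and 0.104 in WT CHX, against 0.0737 and 0.0709 in WT, from 44 and 40 reads in WT CHX and 38 and 31 in WT. XUT0920 had 0.139 and 0.140 in WT CHX, and XUT0921 0.116 and 0.102. The minus-strand NCAS_0I00100 had 0.0955 and 0.0807 in WT CHX, against 0.0601 and 0.0639 in WT, and NCAS_0I00110 had 0.119 and 0.0943 in WT CHX, against 0.0810 and 0.0606 in WT. The ratios of mean density, WT CHX over WT, lay between 1.42 for NCAS_0I00100 and 2.26 for XUT0921.

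All 6 members were called higher in WT CHX than in WT, as were 77.1% of the tested features. Their log2 fold changes ran from 0.49 (SE 0.14) for NCAS_0I00100 to 1.15 (SE 0.13) for XUT0921, below the median of 1.505 over all tested features and below the medians of 1.42 over XUTs, 1.38 over CUTs and 1.58 over mRNAs. The direction depended on the scaling. Scaling each library to its median mRNA lowered this comparison by 1.60 on the log2 scale. The 6 members were then at -1.10 to -0.45 and called lower, as were 893 of the 7879 tested features. Without WT CHX replicate 1 neither mRNA was called (log2 0.37 for NCAS_0I00100 and 0.42 for NCAS_0I00110). The call also ended for NCAS_0I00100 without WT replicate 1, for NCAS_0I00110 without WT replicate 2 (log2 0.38), and for NCAS_0I00100 and XUT0920 with all 10 libraries in the fit.

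Set directly against upf1, WT CHX libraries were lower at every member by 43.3 to 60.5 times. XUT0919 differed by a log2 of -5.95 (SE 0.23), XUT0920 by -5.77 (SE 0.14), NCAS_0I00100 by -5.63 (SE 0.14), CUT1198 by -5.61 (SE 0.13), NCAS_0I00110 by -5.43 (SE 0.19) and XUT0921 by -5.42 (SE 0.13). All 6 were called lower, as were 21.8% of the tested features. The feature ranked between them, XUT0388 on chromosome 2 (log2 -5.71, SE 1.05), had a mean density of 0.0759 in upf1 and none in WT CHX. The next after them was the mRNA NCAS_0J00110 on chromosome 10 (-5.31, SE 0.33), with 0.588 in upf1 and 0.0140 in WT CHX. These 2 were named after their values were seen. The comparisons of upf1 with WT and of WT CHX with WT share the WT libraries.

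**Figure D2:**
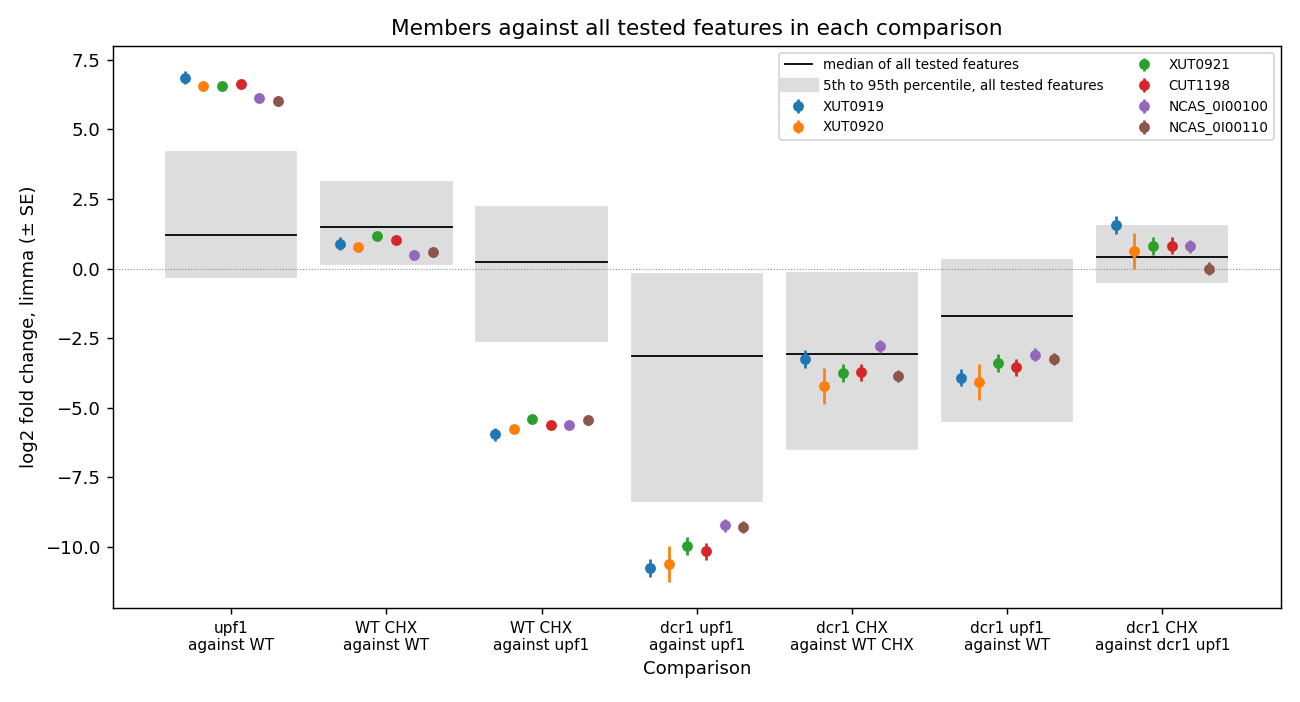
limma log2 fold changes (± SE) of the 6 members in 7 comparisons, over the 5th to 95th percentile (grey) and median (black) of all tested features. The members lie at 6.02 to 6.84 for upf1 against WT, at 0.49 to 1.15 for WT CHX against WT, at -5.95 to -5.42 for WT CHX against upf1 and at -10.76 to -9.22 for dcr1 upf1 against upf1.

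Without Dicer almost all of the small RNA of the cluster was gone from upf1 cells. XUT0919 had 2 and 3 reads in dcr1 upf1, against 2846 and 3061 in upf1, and its mean density was 0.0412% of that in upf1 by the spike-in. The size of this fall depended on the scaling: with mRNA-median scaling the members' log2 fold changes were -8.08 to -6.54, against -10.76 to -9.22 by the spike-in, and as a share of reads the cluster was at -3.44, against -10.08. CUT1198 had 20 and 20 reads in dcr1 upf1, against 15033 and 16108 in upf1, or 0.0626% of the upf1 density, the ratio having an exact 95% interval of 0.000447 to 0.000853 for counting error only. NCAS_0I00100 had 7 and 10 reads in dcr1 upf1, against 2995 and 3057 in upf1, and NCAS_0I00110 had 23 and 24 in dcr1 upf1, against 8730 and 8848 in upf1. XUT0920 had 2 and 9 reads in dcr1 upf1, against 5006 and 5073 in upf1. XUT0921 had 15 and 7 in dcr1 upf1, against 7010 and 7808 in upf1. The plus strand thus kept 0.0412% to 0.0724% of its upf1 density and the minus strand 0.130% and 0.137%. The dcr1 upf1 densities of the members, 0.00341 to 0.00604 on average, rest on 5 to 47 reads per member.

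All 6 members were called lower in dcr1 upf1 than in upf1, as were 83.9% of 7727 tested features. The log2 fold changes were -10.76 (SE 0.32) for XUT0919, -10.62 (SE 0.65) for XUT0920, -10.16 (SE 0.30) for CUT1198 and -9.97 (SE 0.32) for XUT0921 on the plus strand. On the minus strand they were -9.28 (SE 0.22) for NCAS_0I00110 and -9.22 (SE 0.23) for NCAS_0I00100. The medians were -5.73 over XUTs, -4.85 over CUTs and -2.64 over mRNAs. XUT0919 and XUT0920 had the lowest values of all 927 tested XUTs.

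In CHX-treated cells, where the cluster started lower, loss of Dicer took it down by 7.68 to 17.8 times. XUT0919 had 8 and 5 reads in dcr1 CHX, against 44 and 40 in WT CHX. XUT0920 had 13 and 2 in dcr1 CHX, against 65 and 101 in WT CHX. XUT0921 had 20 and 11 in dcr1 CHX, against 130 and 177 in WT CHX. These dcr1 CHX values rest on low counts. CUT1198 had 41 and 19 reads in dcr1 CHX, against 243 and 323 in WT CHX. NCAS_0I00100 had 12 and 10 in dcr1 CHX, against 47 and 61 in WT CHX. NCAS_0I00110 had 15 and 17 reads in dcr1 CHX, against 162 and 197 in WT CHX. The log2 fold changes ran from -4.22 (SE 0.65) for XUT0920 to -2.80 (SE 0.23) for NCAS_0I00100. All 6 were called lower, as were 87.1% of tested features, and the median over all tested features was -3.06. The 3 XUTs, at -4.22 to -3.25, lay above the median of -4.54 over XUTs, and CUT1198, at -3.73, above that of -4.29 over CUTs. The mRNAs, at -3.85 for NCAS_0I00110 and -2.80 for NCAS_0I00100, lay below the median of -2.74 over mRNAs. With scaling to the median mRNA the 6 members were at -1.47 to -0.05, and 3 of them were called lower. Of the 7727 tested features 2949 were called lower with that scaling.

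Small RNA left in the Dicer-deficient strains was also below the WT level. Densities in dcr1 upf1 were 4.83% of WT for XUT0919, 6.29% for CUT1198, 9.72% for NCAS_0I00100 and 8.53% for NCAS_0I00110. The log2 fold changes of dcr1 upf1 against WT were between -4.07 (SE 0.65) for XUT0920 and -3.10 (SE 0.23) for NCAS_0I00100. All 6 were called lower, as were 66.9% of tested features. With mRNA-median scaling all 6 were still called lower, at -2.57 to -1.60, as were 2788 of the 7727 tested features. As a share of reads over annotated features the cluster was higher without Dicer, at 0.0386% and 0.0381% for dcr1 upf1, against 0.0126% and 0.0115% for WT, and at 0.0496% and 0.0310% for dcr1 CHX, against 0.0143% and 0.0134% for WT CHX. Against upf1 the share was lower as well. Between the Dicer-deficient groups 5 members had ratios of mean density of 1.90 to 3.84, dcr1 CHX over dcr1 upf1, on low counts. Of the members only XUT0919 was called higher in dcr1 CHX than in dcr1 upf1 (log2 1.56, SE 0.32), from 8 and 5 reads in dcr1 CHX and 2 and 3 in dcr1 upf1, beside 9.85% of tested features. NCAS_0I00110 was at -0.01 (SE 0.22), with 0.00584 and 0.00618 in dcr1 CHX and 0.00591 and 0.00616 in dcr1 upf1. Without dcr1 CHX replicate 1 or dcr1 upf1 replicate 1 the call of XUT0919 ended, as it did with the larger pseudocount, mRNA-median scaling or only the 4 libraries compared, and without dcr1 CHX replicate 2 CUT1198 was called as well.

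The strands were compared within each library. Per nucleotide, CUT1198 had 1.24 and 1.31 times the density of the 2 mRNAs in the upf1 libraries, 1.13 and 1.21 times in the WT CHX libraries, and 0.784 and 0.930 times in the WT libraries. The upf1 and WT CHX libraries did not overlap the WT libraries. By exact 95% intervals, which cover counting error only, the upf1 ratios were bounded at 1.21 to 1.27 and 1.28 to 1.34, while WT replicate 2 reached 1.14 and WT CHX replicate 1 went down to 0.933. The ratios in dcr1 upf1 were 0.646 and 0.570 and those in dcr1 CHX 1.47 and 0.682, each from fewer than 100 reads. Over pairs of a XUT or CUT with an mRNA on its opposite strand in all chromosomes, the median ratio of lncRNA over mRNA density was 1.37 in upf1 (1487 pairs), 1.19 in WT CHX (1514 pairs) and 1.28 in WT (1381 pairs). The WT ratios at the cluster lay below the WT median but within its quartiles, 0.783 to 2.26. Its upf1 and WT CHX ratios lay near their medians. The cluster ratio pools 2 mRNAs, whereas each pair has a single mRNA, and the pairs include the members. With 2 libraries against 2, an exact two-sided permutation test cannot go below p = 0.33, and no test was made of these ratios.

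**Figure D3:**
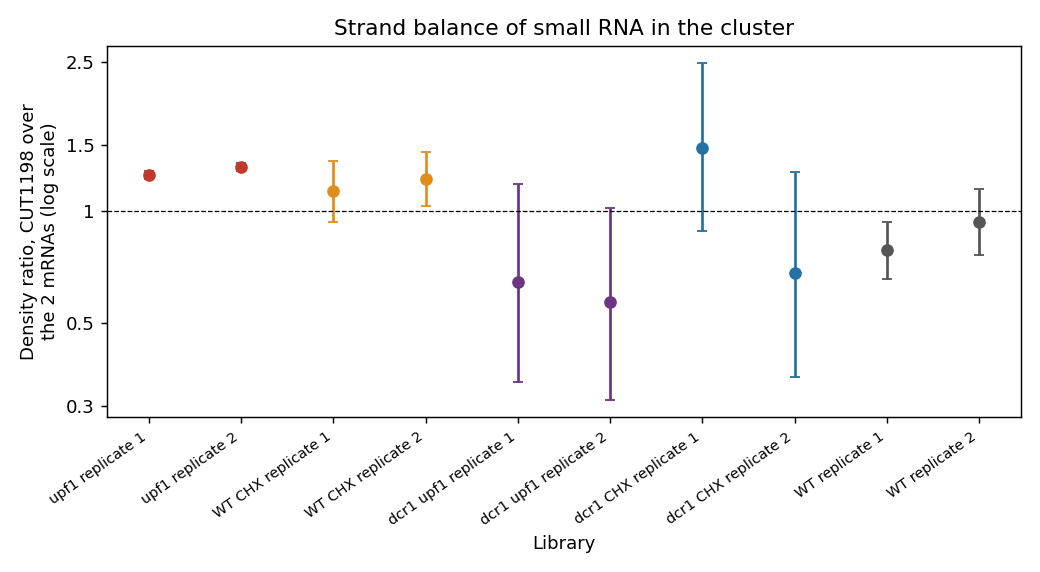
Density of CUT1198 (plus strand) over that of NCAS_0I00100 and NCAS_0I00110 together (minus strand) in each library, on a log scale, with exact 95% intervals for counting error. Ratios were 1.24 and 1.31 in upf1, 1.13 and 1.21 in WT CHX, and 0.784 and 0.930 in WT, and the intervals of the Dicer-deficient libraries are wide.

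Small RNA was not even along CUT1198. In upf1 its first part was denser, XUT0919 having 1.83 and 1.76 times the density of XUT0921 and XUT0920 having 1.71 and 1.56 times. The WT libraries also had both above XUT0921, at 1.60 and 1.41 times for XUT0919 and 1.93 and 1.45 times for XUT0920. In WT CHX the ratios were 1.52 and 1.02 for XUT0919, and 1.20 and 1.37 for XUT0920. The mRNAs on the other strand were nearly level in upf1, where NCAS_0I00100 had 0.948 and 0.954 times the density of NCAS_0I00110, and scattered from 0.742 to 1.06 times in WT. XUT0919 was above XUT0920 in upf1, with ratios of 1.07 and 1.13. In WT these ratios were 0.829 and 0.969, from 38 and 31 reads of XUT0919. In WT CHX they went both ways, at 1.27 and 0.743. Such low counts do not settle the order of XUT0919 and XUT0920 in WT or WT CHX.

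The nearest annotated feature on each side of the cluster did not pass the test in upf1 against WT. On the side away from the chromosome end FRT1, on the minus strand 801 bases beyond the cluster, had 6 reads in upf1 and 10 in WT over both libraries (log2 -0.17, SE 0.44, limma adjusted p = 0.771). MYO2, the gene of a class V myosin, came next with 46 reads in upf1 and 49 in WT (log2 0.26, SE 0.35, limma adjusted p = 0.553). Both were called higher with CHX, FRT1 with a log2 fold change of 2.08 (SE 0.44, limma adjusted p = 0.00460) and MYO2 with 1.48 (SE 0.35, limma adjusted p = 0.00704), beside 0.49 to 1.15 at the members. XUT0922, 7914 bases away, was called higher in upf1 at 0.64 (SE 0.18, limma adjusted p = 0.0201). These calls depended on the scaling, as did the direction for XUT0922 and MYO2. With mRNA-median scaling XUT0922 was at -0.52 in upf1 against WT (limma adjusted p = 0.0287) and FRT1 at -1.33 (limma adjusted p = 0.0483), and with CHX against WT MYO2 was at -0.12 (limma adjusted p = 0.822) and FRT1 at 0.49 (limma adjusted p = 0.447).

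Toward the chromosome end CUT1197, 148 bases from the cluster, had 4 reads in upf1 and 2 in WT (log2 1.11, SE 0.60, limma adjusted p = 0.155). Beyond it, CUT1196 on the minus strand rose in upf1 by 2.91 on that scale (SE 0.30, limma adjusted p = 0.000151) and CUT1194 by 3.62 (SE 0.23, limma adjusted p = 1.21e-05), to mean densities of 0.0944 and 0.162 in upf1, well under those of the members. Both stayed called with mRNA-median scaling, CUT1196 at 1.75 and CUT1194 at 2.46, while CUT1197 was then at -0.05. CUT1194 was also lower in WT CHX than in upf1, at -2.75 (SE 0.23, limma adjusted p = 0.000139). Of the 27 other features that start in the first 30 kb of the chromosome, 24 were tested. In upf1 against WT 12 were called higher (50%, beside 57.7% of all tested features) and 0 lower, with a median of 0.84. In WT CHX against WT 14 were called higher (58.3%, beside 77.1%) and 0 lower, with a median of 1.42. Of the same 24, 9 were higher in WT CHX than in upf1 (37.5%, beside 1891 of all 7879 tested features) and 4 lower (16.7%, beside 21.8%). Without Dicer 20 fell in upf1 cells (83.3%, beside 83.9%) and 23 in CHX-treated cells (95.8%, beside 87.1%). Scaling to the median mRNA takes 1.16 off each log2 value of upf1 against WT and 1.60 off each of WT CHX against WT, so the medians of these 24 features then turn negative in both comparisons, while the members stay at 4.86 or above in upf1 against WT.

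**Figure D4:**
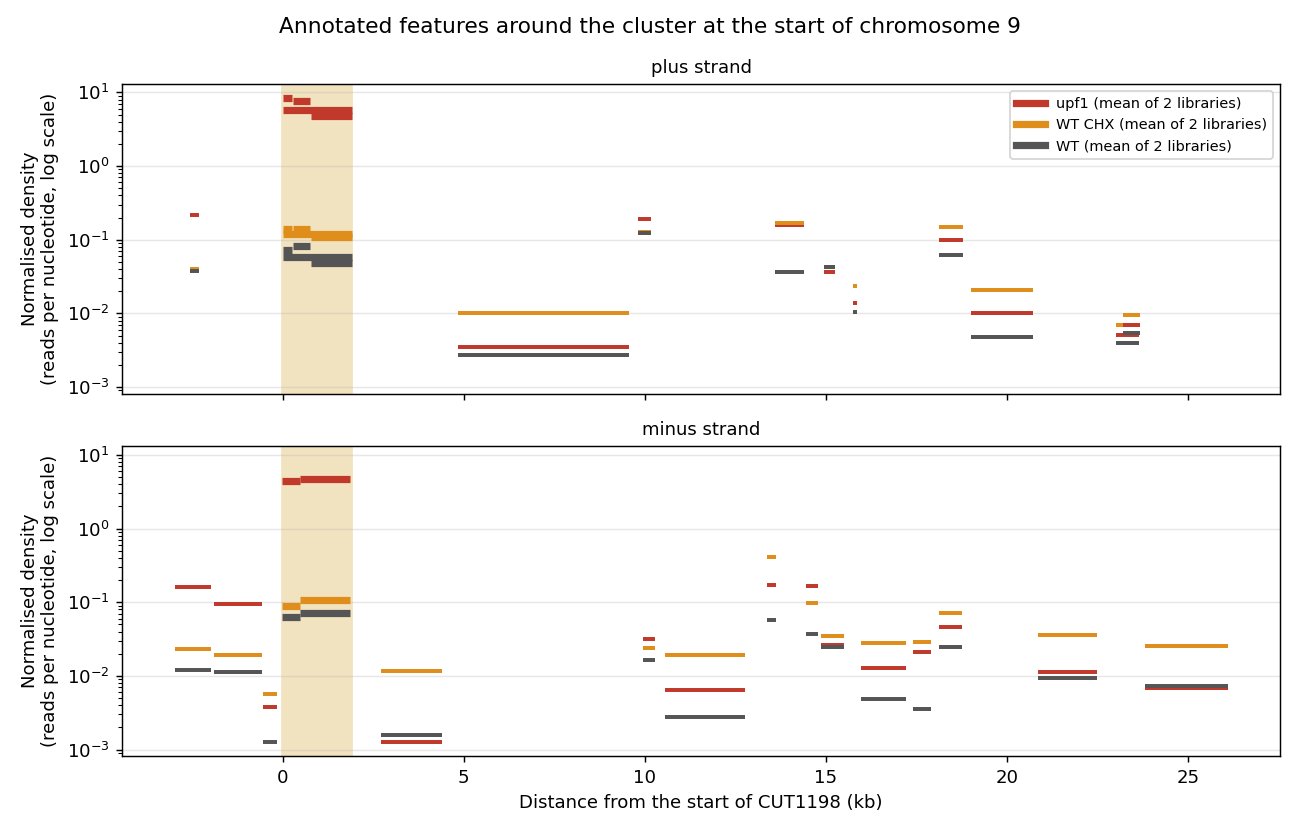
Mean normalised density (reads per nucleotide, log scale) of each annotated feature by strand around the cluster, against distance from the start of CUT1198, in upf1, WT CHX and WT. Features with a mean of 0 are not drawn. The shaded cluster stands at 4.41 to 8.47 in upf1, and FRT1 to its right at 0.00126.

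Features near chromosome ends were next compared. Within 15 kb of position 1 or of the last annotated position of a chromosome lay 245 features, members left out. Of these, 185 were tested in the fit of Dicer-proficient libraries. In upf1 against WT 137 of them were called higher (74.1%, beside 57.7% of all tested features), none was lower, and the median was 2.67 on the log2 scale, beside 1.198 over all tested features. With CHX against WT 132 were higher (71.4%, beside 77.1%) and 1 lower, with a median of 1.25, beside 1.505. In WT CHX against upf1 18 were higher (9.73%, beside 1891 of all 7879 tested features) and 114 lower (61.6%, beside 21.8%). The median was -1.62, beside 0.24. The lowest value there was -5.31 (SE 0.33), for NCAS_0J00110, so every member lay below all of these features by value. XUT0921 at -5.42 (SE 0.13) and NCAS_0I00110 at -5.43 (SE 0.19) were within the SE of that feature. XUTs and CUTs opposite an mRNA elsewhere, 1454 tested, had medians of 1.96 in upf1 and 1.49 with CHX, and mRNAs opposite a XUT or CUT, 1183 tested, had medians of 1.62 and 1.52. Less the scaling shifts, the upf1 medians of these 3 lists stay positive and their CHX medians turn negative.

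By Pearson r of log2 density over the 10 libraries among 3858 features, the 5 features most like the members' mean were DAL7 on chromosome 4 (r = 0.997), XUT0847 (0.996), CUT1112 (0.996), XUT0848 (0.996) and XUT0843 (0.995), the last 4 all on chromosome 8. DAL7 encodes a malate synthase of allantoin breakdown in Saccharomyces cerevisiae. These r values are descriptive, the median r over the candidates was 0.833, 23 of them had an r above 0.99, and XUT0847 and CUT1112 are overlapping annotations. Distances were taken to position 1 or to the last annotated position, whichever was nearer. They were 17.2 kb for DAL7 and 16.6, 16.6, 19.9 and 9.19 kb for the others, beside 4.8 kb for the cluster. DAL7 had mean densities of 1.56 in upf1, 0.0395 in WT CHX and 0.0195 in WT. XUT0847 had 2.01 in upf1, 0.0678 in WT CHX and 0.0246 in WT, so these features shared the pattern at lower densities than the cluster. Within the cluster r with the members' mean was 0.994 to 1.00, partly because members share reads.

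Small RNAs of listed RNA decay genes differed less between upf1 and WT than the members did, by value. Of 44 symbols listed 40 were found, the RNA interference genes DCR1 and AGO1 not among them, and 39 genes were tested. In upf1 against WT 19 were called higher (48.7%, beside 57.7% of all tested features) and none lower, around a median of 0.67 on the log2 scale, beside 1.198. In WT CHX against WT 33 were called higher (84.6%, beside 77.1%) and 0 lower, with a median of 1.75, beside 1.505. Less the same shifts the upf1 median turns negative and the CHX median stays positive. XRN1, whose product degrades XUTs, was at 0.30 (SE 0.38) in upf1 against WT and rose by 2.46 (SE 0.38, limma adjusted p = 0.00117) with CHX. NMD2, another NMD factor, rose by 1.42 (SE 0.24, limma adjusted p = 0.00176) in upf1 and by 2.01 (SE 0.24, limma adjusted p = 0.000381) with CHX. SEN1, a helicase that ends non-coding transcription, rose by 3.06 in upf1 (limma adjusted p = 1.24e-05) and by 1.19 with CHX (limma adjusted p = 0.00142), and was the largest upf1 rise in the list. Of these 5 calls only that of SEN1 in upf1 held with mRNA-median scaling, at 1.90 (limma adjusted p = 0.000253). With CHX SEN1 was then at -0.41 (limma adjusted p = 0.145), XRN1 at 0.87 (limma adjusted p = 0.147) and NMD2 at 0.41 (limma adjusted p = 0.253), and NMD2 was at 0.26 in upf1 (limma adjusted p = 0.405). These 3 genes were named after their values were seen.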

How the data were processed

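Per the labels' protocols, cells were grown at 25 °C to an OD600 of 0.5, 25 µg of RNA was mixed with 1 µg of S. pombe RNA, and S. pombe small RNAs of 22 to 23 nt were the spike-in. Bowtie, Trim Galore and build ASM294v2 (S. pombe) are listed, per the submitters' processing notes. The N. castellii build is not given in the sources used here. The values are a signal the authors deposited, normalised reads per nucleotide. The file lists 8770 entries, of which 92 synthetic controls and 271 repeated intervals were left out. Density times length gave whole multiples of 1 step for 100% of entries within 0.001, and these are called reads. The RefSeq table of ASM23734v1 gave 5589 mRNA identifiers the same start. The length was a multiple of 3 for 97.6% of mRNA intervals.

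R 4.3.3 with limma 3.58.1 was fitted to log2(density + 0.00145), the median 10th percentile of non-zero densities, with moderated, trended variances and Benjamini-Hochberg adjustment over all features with a mean at or above that value. Calls were two-sided at 0.05. Comparisons among upf1, WT CHX and WT came from a fit of those 6 libraries, the others from all 10. The pseudocount makes fold changes of low-density features too small. Alternatives were other pseudocounts, no filter, mRNA-median scaling, other libraries in the fit, a replicate block and leaving out each library. Features named are the members, the 3 nearest on each side, the 5 most alike and examples from the lists. Members and lists were chosen with earlier results of these data known.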

Additional observations from a re-analysis of the deposited data

How the results depend on the processing

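With upf1 against WT, WT CHX against upf1, dcr1 upf1 against upf1 and dcr1 upf1 against WT, all 6 members kept their call and direction under every alternative fit run. For WT CHX against WT, mRNA-median scaling reversed all 6, to -0.70 for XUT0919, -0.82 for XUT0920, -0.45 for XUT0921, -0.59 for CUT1198, -1.10 for NCAS_0I00100 and -1.01 for NCAS_0I00110, and leaving out a library left 4 to 6 called, and fitting all 10 left 4. For dcr1 CHX against WT CHX, 3 members stayed called with that scaling. For dcr1 CHX against dcr1 upf1, 1 call became 0 with the larger pseudocount, with mRNA-median scaling or with only 4 libraries, and 2 with the smaller pseudocount; leaving out a library gave 0 to 2. There, leaving out a library, XUT0920 ranged from -0.46 to 1.72, below 0 without replicate 1 of either group, and NCAS_0I00110 from -0.039 to 0.028, above 0 without dcr1 CHX replicate 1 or dcr1 upf1 replicate 2. The causes were not tested.

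Taken as a share of reads in place of spike-in density, the log2 ratio of the whole cluster was 5.12 in place of 6.37 for upf1 over WT, 0.20 in place of 0.80 for WT CHX over WT, -4.91 in place of -5.56 for WT CHX over upf1, -3.44 in place of -10.08 for dcr1 upf1 over upf1 and 0.072 in place of 0.69 for dcr1 CHX over dcr1 upf1. It reversed to 1.54 for dcr1 CHX over WT CHX and to 1.67 for dcr1 upf1 over WT.

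With mRNA-median scaling 3062 features in place of 4598 were called for upf1 against WT and 1828 in place of 6084 for WT CHX against WT. Calls for upf1 against WT were then 2190 higher and 872 lower in place of 4549 and 49, for WT CHX against WT 935 and 893 in place of 6071 and 13. For WT CHX against upf1 it was 1052 and 2379 in place of 1891 and 1714. For dcr1 upf1 it was 2025 and 3354 in place of 22 and 6480 against upf1, and 1405 and 2788 in place of 112 and 5166 against WT. For dcr1 CHX it was 1716 and 2949 in place of 47 and 6728 against WT CHX, and 129 and 59 in place of 761 and 19 against dcr1 upf1. For WT CHX against upf1 it was 2340 in place of 3605 without WT CHX replicate 1. For dcr1 CHX against dcr1 upf1 it was 780, and ranged from 150 with the larger pseudocount to 1438 with the smaller, with 188 under mRNA-median scaling, 170 with only 4 libraries, and 253 and 403 without dcr1 upf1 replicate 1 and 2.

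The labels give shared replicate numbers but do not say that they pair the samples. Differences between replicates correlated between groups with r from -0.03 to 0.02. With the replicate block all 6 members were called in the first 6 comparisons and 1 in the last, as without it. The planned edgeR and DESeq2 fits of the recovered reads were not run. In Dicer-deficient libraries a member rests on 2 to 41 reads.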
